A study of Mus musculus with 24 samples.

Results

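The late phase of primary myoblast (PM) differentiation was examined by comparing RNA-seq libraries of control PMs at day 6 with those at day 3. These were 4 of the 24 libraries of the study, 2 biological replicates per day, and all genes of the count table were considered. Of the 28109 genes in the table, 16144 had enough reads for the test. PMs are the proliferating progeny of muscle stem cells, and here they came from the muscles of wild-type mice of the C57/B6 strain aged 3 to 4 weeks. They were grown on matrigel, transfected with an siRNA directed against luciferase (siControl) 24 h before differentiation, and then placed in medium with 2% horse serum. All cultures were thus transfected, and each library is the polyadenylated RNA of a whole dish in which myotubes, unfused myoblasts and any other cells of the isolate were lysed together. In such bulk samples, a change in the number of cells of a type and a change in the RNA per cell cannot be told apart. A further 3 sets of libraries were used beside them: siControl PMs at day 0, PMs transfected with siRNAs against Tead1 and Tead4 (siTead1/4) at days 3 and 6, and siControl C2C12 cells at days 3 and 6. C2C12 is an established mouse myoblast line, according to the labels of the C3H strain. The 4 libraries compared held 33856925 to 44059044 counted reads.

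When serum is withdrawn, myoblasts leave the cell cycle, fuse into myotubes and switch on the genes of the contractile apparatus. Maturing muscle then exchanges developmental isoforms of the sarcomere proteins for those of its definitive fibre type, fast or slow. Slow fibres carry their own myosin heavy and light chains and troponins together with abundant myoglobin. Muscle cells also sit in an extracellular matrix of collagens, fibronectin and proteoglycans, which is made by the muscle cells themselves and, in larger part in the animal, by interstitial fibroblasts.

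Between day 3 and day 6, 358 genes rose and 94 fell in siControl PMs, 452 in all (2.8%). To be called, genes had to pass an adjusted p of 0.05 in edgeR's quasi-likelihood test with Benjamini-Hochberg adjustment and to change by more than 1 on the log2 scale. Of the tested genes 2.22% were thus called up and 0.582% were called down, and counts of called list members below are to be read against these shares. By contrast, 2821 genes rose (17.5%) and 2398 fell (14.9%) between day 0 and day 3 in the same fit. The median log2 fold change from day 3 to day 6 was 1.67 for the genes called up and -1.26 for those called down, and -0.01 over all tested genes. Levels are given below in CPM, the read count scaled by the TMM-adjusted library size, in the order replicate 1 and replicate 2. Over all tested genes, both day 6 libraries lay above both day 3 libraries in 24.4%, and below them in 25.9%, so that non-overlapping values alone do not set a gene apart. The 14 largest rises and 10 largest falls named below were picked among called genes with non-overlapping days. For these genes, among them Tnfsf18, Tspan8, Myl2, Dcn, Thbs4, Smoc2 and Pvalb, non-overlap was a condition of the choice and adds no support.

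**Figure D1:**
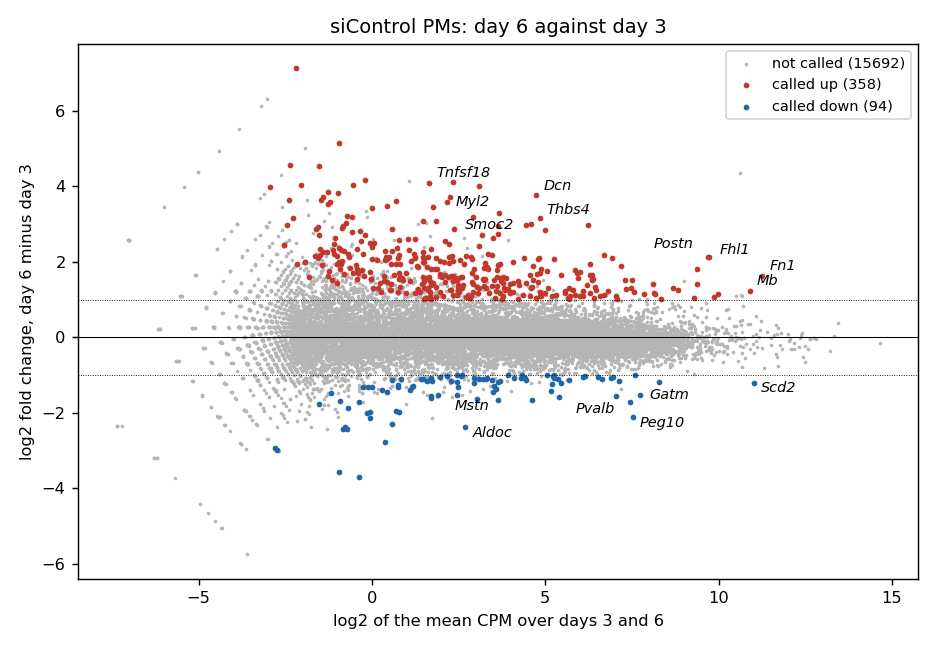
Each point is 1 of the tested genes, with the log2 of its mean CPM over days 3 and 6 on the horizontal axis and its log2 fold change (day 6 minus day 3) on the vertical axis. Red points are the 358 genes called up and blue points the 94 called down, and dotted lines mark a log2 fold change of 1 and -1. Fhl1, Postn, Fn1 and Mb are abundant genes called up, and Scd2 is an abundant gene called down.

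The rises with the largest fold changes included genes of several functions. Tnfsf18, a ligand of the tumour necrosis factor family, had no read at day 0, 0.243 and 0.437 CPM at day 3, and 6.68 and 5.12 CPM at day 6 (log2 fold change 4.09, SE 0.42, adjusted p = 0.00187 in edgeR). Tspan8, a tetraspanin of the cell membrane, went from 0.378 and 1.58 CPM to 15.9 and 16.1 CPM (log2 fold change 4.01, SE 0.57, adjusted p = 0.00564 in edgeR). The log2 fold change of Tspan8 was 3.34 without day 3 replicate 1 and 5.39 without day 3 replicate 2, and the gene was still called. Both genes were below 2 CPM in the day 3 libraries, and the lack of overlap between their days was a condition of their choice. Kcnj15, an inwardly rectifying potassium channel, rose from 2.51 and 0.485 CPM to 15.3 and 11.9 CPM (log2 fold change 3.19), and was also called without day 3 replicate 1 (4.80) and without day 3 replicate 2 (2.43). Qrfp, a neuropeptide precursor, rose from 0.486 and 0.607 CPM to 7.23 and 12.0 CPM (log2 fold change 4.13), but was no longer called when day 3 replicate 1 (3.98) or day 3 replicate 2 (4.30) was left out. A further 5 large rises were called with all libraries but depended on single ones. Kcnc4, another potassium channel (3.71), was not called without day 3 replicate 1 (2.89), day 3 replicate 2 (6.00) or day 6 replicate 2 (2.69), and reached 4.30 without day 6 replicate 1. Serpinb9b, a serine protease inhibitor (3.59), was not called without day 3 replicate 2 (2.85) or day 6 replicate 1 (2.91), and reached 5.06 without day 3 replicate 1. Fam167a (3.00) was not called without day 3 replicate 1 (2.58) and reached 3.59 without day 3 replicate 2. Spon2, a secreted spondin (3.07), was not called without day 3 replicate 1 (2.64), day 3 replicate 2 (3.71) or day 6 replicate 2 (2.44). Cilp, a matrix protein first known from cartilage, had 6.56 and 27.1 CPM at day 3 and 95.0 and 173 CPM at day 6 (2.98), and lost its call whichever of the 4 libraries was left out (2.30 to 4.35).

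The myosin heavy chain genes, which encode the motor proteins of the thick filament and differ between developing, fast and slow muscle, did not move together. Of 10 sarcomeric genes in the list, 9 were tested, 3 rose (33.3%, against 2.22% of all genes), and none fell. Myh2, the fast oxidative type IIa chain, had 24.4 and 41.2 CPM at day 3 and 124 and 126 CPM at day 6 (log2 fold change 1.93, SE 0.31, adjusted p = 0.00862 in edgeR). Myh7 (ENSMUSG00000053093, mm9 chr14:55589525-55613471), the slow type I chain, had 32.1 and 43.1 CPM at day 3 and 89.8 and 146 CPM at day 6 (log2 fold change 1.65, SE 0.41, adjusted p = 0.0417 in edgeR). Myh7b, a chain related to the slow form, had 8.21 and 9.20 CPM at day 3 and 15.1 and 31.0 CPM at day 6 (log2 fold change 1.40, SE 0.36, adjusted p = 0.0473 in edgeR). In all 3 genes the day 6 libraries were above both day 3 libraries, and the replicates of day 6 lay close together for Myh2 and apart for Myh7 and Myh7b. Myh2 was not called without day 3 replicate 1 (1.60). Myh7 was not called without day 3 replicate 1 (1.45), day 3 replicate 2 (1.87) or day 6 replicate 2 (1.25), and the same 3 omissions ended the call of Myh7b (1.32, 1.48 and 0.79).

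The abundant developmental and fast chains did not pass the test between day 3 and day 6. Myh3, the embryonic chain, had 10616 and 10722 CPM at day 3 and 7041 and 9557 CPM at day 6 (log2 fold change -0.36, adjusted p = 0.364 in edgeR). Myh8, the neonatal chain, had 6633 and 7019 CPM and then 4682 and 6243 CPM (log2 fold change -0.32, adjusted p = 0.391 in edgeR). Myh1, the fast type IIx chain, had 7185 and 6838 CPM and then 4137 and 4829 CPM (log2 fold change -0.65, adjusted p = 0.0855 in edgeR). In each of these 3 genes both day 6 libraries were below both day 3 libraries, by differences that the test did not separate from the replicate spread. Myh4, the fast type IIb chain, had 2484 and 1902 CPM at day 3 and 3022 and 1976 CPM at day 6, with overlapping groups (log2 fold change 0.19). All 4 had been called up from day 0 to day 3, when Myh4 rose from 10.7 and 13.1 CPM (log2 fold change 7.53) and Myh3 from 4108 and 3792 CPM (1.43). Myh6 stayed under 1 CPM and Myh13 under 2 CPM in each library of days 3 and 6.

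Expressed per length, as CPM per kb of gene model, the 3 chains that rose remained a small part of all myosin heavy chain transcripts. Myh3 made up 42.5% (SD 0.888, n = 2) of the summed CPM per kb of the 10 genes at day 3 and 41.9% (SD 3.90, n = 2) at day 6. Myh1 made up 27.0% (SD 0.572) and then 22% (SD 0.293), Myh8 21.3% (SD 1.14) and 21.5% (SD 1.74), and Myh4 8.89% (SD 1.55) and 13.2% (SD 5.44). Myh2 went from 0.132% (SD 0.0498) to 0.646% (SD 0.0720), and Myh7 from 0.145% (SD 0.0319) to 0.570% (SD 0.125). The order Myh3, then Myh1 and Myh8, then Myh4 held for the means on both days, but the shares of Myh1 and Myh8 at day 6 lay within 1 SD of each other. These genes are close paralogs, and reads that fit several copies can be lost or assigned unevenly, so that the shares are uncertain.

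Among the myosin light chains, the gene called up was Myl2 (ENSMUSG00000013936, mm9 chr5:122550960-122563481). This regulatory light chain of slow and cardiac muscle had 2.32 and 2.43 CPM at day 3 (86 and 100 reads) and 20.3 and 25.9 CPM at day 6 (660 and 831 reads), a log2 fold change of 3.28 (SE 0.34, adjusted p = 0.00123 in edgeR). Both day 6 values lay far above both day 3 values, and the call held when any of the 4 libraries was left out. Mylk2, the kinase that phosphorylates the fast regulatory light chain, fell from 54.1 and 47.7 CPM to 27.1 and 23.4 CPM (log2 fold change -1.01, SE 0.19, adjusted p = 0.0148 in edgeR), although not without day 3 replicate 1 (-0.92) or day 6 replicate 2 (-0.91). The other 6 tested genes of this list were not called. One of them was Myl3, the slow essential light chain, which stayed under 1 CPM in every library.

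The thin filament, on which troponin and tropomyosin confer calcium control, gave a single call. Of 17 tested genes 1 was called, the slow skeletal troponin T gene Tnnt1, which went from 640 and 622 CPM to 1073 and 1708 CPM (log2 fold change 1.14, SE 0.19, adjusted p = 0.0110 in edgeR). Its day 6 replicates differed by more than its day 3 replicates, and it was not called without day 6 replicate 2 (0.76), day 3 replicate 1 (1.16) or day 3 replicate 2 (1.12). Skeletal actin Acta1 had 10427 and 9631 CPM at day 3 and 9810 and 10865 CPM at day 6, which overlapped (log2 fold change 0.04). The fast troponin T gene Tnnt3 had 5256 and 4477 CPM and then 4386 and 4436 CPM (-0.14), the fast troponin I gene Tnni2 1504 and 1346 CPM and then 1875 and 1700 CPM (0.33), and the slow troponin I gene Tnni1 3096 and 2996 CPM and then 3262 and 3956 CPM (0.24). None of these 3 passed the test. The slow troponin C gene Tnnc1 had 2 to 7 reads in the libraries of days 3 and 6 and was not tested.

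**Figure D2:**
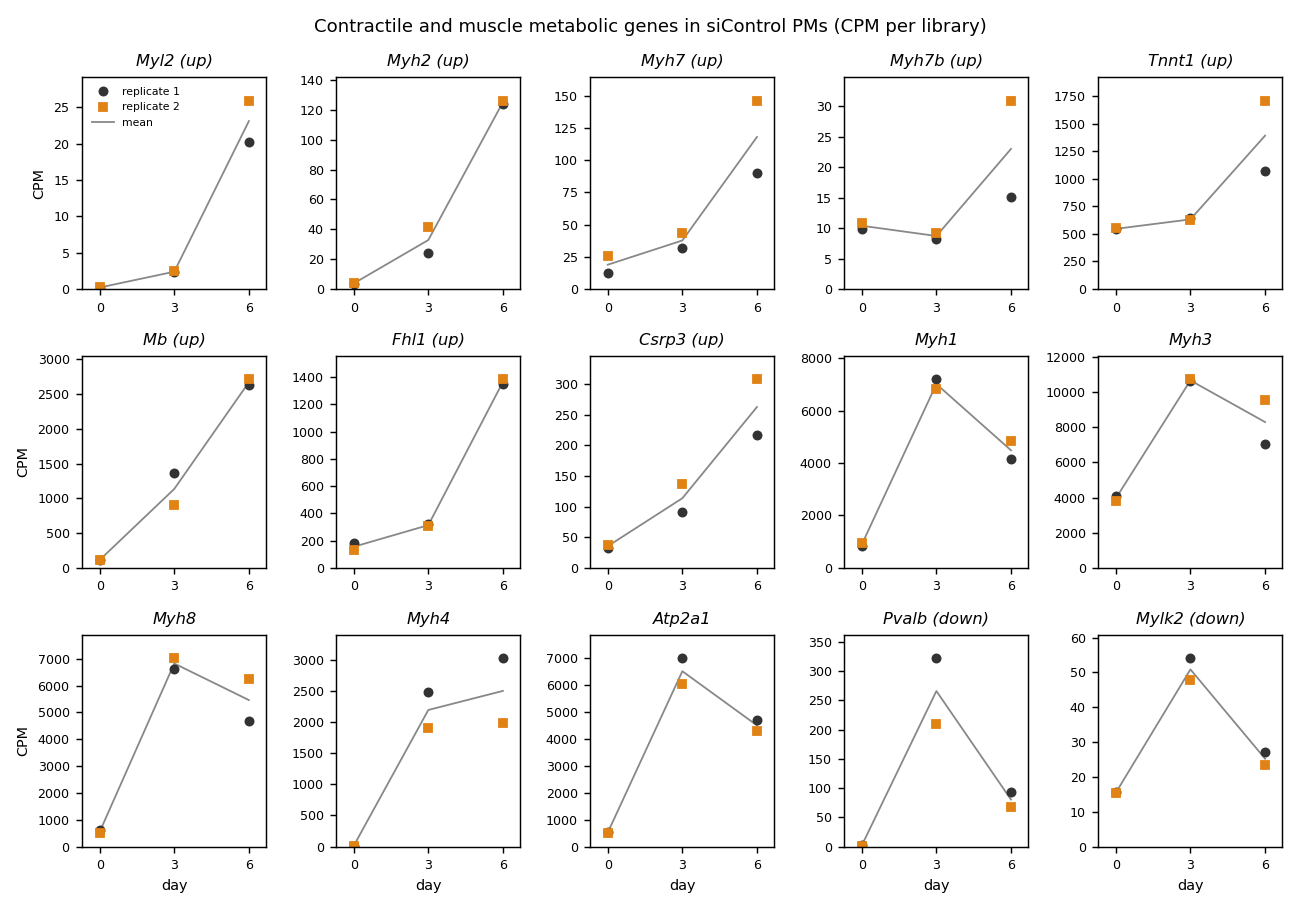
Each panel shows the CPM of 1 gene (vertical axis, starting at 0) against the day of differentiation (horizontal axis) in siControl PMs, with replicate 1 as black circles, replicate 2 as orange squares and a grey line through the means. Genes called at day 6 against day 3 carry "up" or "down". Myl2 went from 2.32 and 2.43 CPM to 20.3 and 25.9 CPM, while Myh1, Myh3 and Myh8 were highest at day 3 and were not called.

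Of 30 tested genes of the Z-disc, M-band and titin list, 2 rose (6.67%, against 2.22% of all genes) and none fell. Fhl1 (ENSMUSG00000023092, mm9 chrX:53984964-54046523), a LIM-domain protein that is abundant in skeletal muscle, had 320 and 305 CPM at day 3 and 1346 and 1382 CPM at day 6 (log2 fold change 2.12, SE 0.22, adjusted p = 0.00123 in edgeR). Its replicates were close on both days and its call held without any 1 of the 4 libraries. Csrp3, the muscle LIM protein of the Z-disc, went from 90.9 and 136 CPM to 218 and 308 CPM (log2 fold change 1.21, adjusted p = 0.0408 in edgeR), a call lost whichever library was left out (0.94 to 1.53). Outside the list, and named after their values were seen, the related LIM gene Fhl2 rose from 23.5 and 15.3 CPM to 55.9 and 39.9 CPM (1.30), and Abra, an actin-binding protein of striated muscle, from 37.9 and 43.4 CPM to 94.6 and 96.5 CPM (1.23). Abra was not called without day 3 replicate 1 (1.14), whereas Fhl2 was called throughout.

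Genes of excitation-contraction coupling, which link the action potential to calcium release, gave 25 of 26 tested genes that were not called. This is near the share over all genes, of which 2.8% were called. The median of the list was -0.15 on the log2 scale. The exception was Pvalb, the calcium buffer parvalbumin of fast fibres, which had risen from 2.18 and 1.58 CPM at day 0 to 322 and 210 CPM at day 3 and fell to 92.6 and 67.9 CPM at day 6 (log2 fold change -1.73, SE 0.37, adjusted p = 0.0247 in edgeR). The call of Pvalb was lost without day 3 replicate 1 (-1.39), day 6 replicate 1 (-1.97) or day 6 replicate 2 (-1.52). The calcium pump genes were not called. Atp2a1, the pump of fast fibres, had 6980 and 6024 CPM and then 4684 and 4303 CPM (-0.53, adjusted p = 0.0615 in edgeR), and Atp2a2, the pump of slow fibres, had 2011 and 2019 CPM and then 2012 and 2098 CPM (0.03).

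When the sarcomere and calcium-handling genes were grouped by the fibre type they are textbook markers of, a grouping made after their values were seen, 6 of 13 tested slow-fibre genes rose (Myl2, Myh7, Myh7b, Mb, Csrp3 and Tnnt1) and none fell. Of 15 tested fast-fibre genes none rose and 2 fell (Pvalb and Mylk2). These were 46.2% of the slow-fibre genes up and 13.3% of the fast-fibre genes down, against 2.22% and 0.582% of all genes. The lack of rises among 15 fast-fibre genes is near the share of all genes. Of these calls only that of Myl2 held whichever library was left out. The median log2 fold change was 0.28 for the slow-fibre genes and -0.14 for the fast-fibre genes. Mb, the oxygen-binding myoglobin, went from 1367 and 901 CPM to 2630 and 2709 CPM (log2 fold change 1.23, SE 0.18, adjusted p = 0.00580 in edgeR), and fell just short of the fold threshold without day 3 replicate 2 (0.96). Car3, the carbonic anhydrase of slow fibres, was named after its values were seen. It had 16.0 and 276 CPM at day 3 and 947 and 4978 CPM at day 6, with a log2 fold change of 4.34 that was not called, with replicates of each day that differed widely (SE 1.35, adjusted p = 0.0877 in edgeR). Car3 did pass both thresholds in DESeq2 (4.33, adjusted p = 0.00819 in DESeq2) and with a replicate block (4.61, adjusted p = 0.0110 in edgeR). In siTead1/4 PMs its log2 fold change over the same days was 5.55, also not called (adjusted p = 0.0502 in edgeR).

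Metabolic genes gave 1 call in each direction in both of their lists, 4.76% of 21 and 4.55% of 22 tested genes, where 2.22% of all genes were called up and 0.582% were called down. Of 21 tested genes listed under muscle glycolysis, glycogen and phosphagen metabolism, Mb was the only one that rose. Mb binds oxygen and is not an enzyme of these pathways, so no enzyme of the list was called up. Ckmt2, the sarcomeric mitochondrial creatine kinase, fell from 137 and 189 CPM to 86.8 and 66.3 CPM (log2 fold change -1.09). The call of Ckmt2 was lost in each of the 4 fits that left out 1 library (-0.84 to -1.31). The muscle creatine kinase Ckm had 2148 and 1559 CPM and then 1405 and 976 CPM (-0.64, adjusted p = 0.238 in edgeR). Aldoc, an aldolase isoform outside the list, showed the largest fall among the genes named by size, from 14.7 and 6.87 CPM to 1.97 and 2.22 CPM (log2 fold change -2.37), but was not called without day 3 replicate 1 (-1.72), day 6 replicate 1 (-2.29) or day 6 replicate 2 (-2.46). Of 22 tested genes of oxidative and fatty acid metabolism, Cd36, a fatty acid transporter, rose from 18.7 and 37.9 CPM to 63.6 and 68.6 CPM (1.22), and Ppargc1a, a coactivator of mitochondrial biogenesis, fell from 24.9 and 21.7 CPM to 9.11 and 12.9 CPM (-1.08). Cd36 was not called without day 3 replicate 1 (0.80), day 6 replicate 1 (1.27) or day 6 replicate 2 (1.16) and reached 1.82 without day 3 replicate 2, and Ppargc1a was not called without day 3 replicate 1 (-0.98), day 3 replicate 2 (-1.18) or day 6 replicate 1 (-0.85).

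None of the tested respiratory chain subunits, grouped by gene symbol after the values were seen, was called. Of 35 complex I subunits 29 had lower values at day 6, with a median log2 fold change of -0.27, as had 12 of 15 cytochrome c oxidase subunits (median -0.40) and 14 of 15 ATP synthase subunits (median -0.40). Over all 16144 tested genes 8322 had lower values, and the median was -0.01. Gatm, which makes the precursor of creatine, fell from 314 and 319 CPM to 100 and 118 CPM (log2 fold change -1.54, SE 0.15, adjusted p = 0.00113 in edgeR), a call kept without any 1 of the 4 libraries. Acaa2, an enzyme of mitochondrial fatty acid oxidation, fell from 232 and 154 CPM to 84.9 and 88.2 CPM (-1.16), although not without day 3 replicate 1 (-0.83) or day 6 replicate 1 (-1.13). Gpt2, the mitochondrial alanine aminotransferase, fell from 185 and 147 CPM to 82.0 and 79.0 CPM (-1.04) and was not called without day 3 replicate 1 (-0.87).

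Genes of cholesterol and lipid synthesis were lower at day 6 without exception: 18 of 18 tested genes had a negative log2 fold change, with a median of -0.56. One of them was called. Scd2 (ENSMUSG00000025203, mm9 chr19:44368166-44381354), a stearoyl-CoA desaturase, had 2650 and 3085 CPM at day 3 and 1239 and 1258 CPM at day 6 (log2 fold change -1.20, SE 0.14, adjusted p = 0.00228 in edgeR), and this call held without any 1 of the 4 libraries. At the adjusted p alone, with no fold threshold, 10 of the 18 passed, where 2.54% of all tested genes passed in this direction. Among these were Lss, which closes the sterol ring (41.9 and 47.2 CPM, then 24.2 and 24.4 CPM, log2 fold change -0.87), Idi1, an isomerase early in the pathway (18.6 and 22.6 CPM, then 11.2 and 10.2 CPM, -0.94), and Fdps, which makes farnesyl diphosphate (158 and 163 CPM, then 83.9 and 99.7 CPM, -0.80). The summed level of the list was 5222 and 5925 CPM at day 3 and 3002 and 3132 CPM at day 6. From day 0 to day 3 Scd2, Idi1 and Fdps had been called up, with log2 fold changes of 1.52, 1.12 and 1.75.

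Many rises were in the extracellular matrix, the scaffold of secreted proteins around cells. Of 29 tested genes 12 rose and none fell, against the 2.22% of all genes called up, and the median log2 fold change was 1.03. Without day 3 replicate 1, 8 genes of the list were called, and 10 to 13 without any other 1 of the 4 libraries. The summed level of the list was 11890 and 12480 CPM at day 3 and 27000 and 21820 CPM at day 6. Dcn (ENSMUSG00000019929, mm9 chr10:96942245-96980777), the collagen-binding proteoglycan decorin, had 4.67 and 2.67 CPM at day 3 (173 and 110 reads) and 61.2 and 38.5 CPM at day 6 (1989 and 1233 reads), a log2 fold change of 3.77 (SE 0.42, adjusted p = 0.00187 in edgeR). Lum, the related lumican, had 4 and 2 reads at day 3 and 53 and 31 reads at day 6, so that its fold change rests on very few day 3 reads (log2 fold change 4.02, and 4.65 without day 3 replicate 1). Fibronectin, Fn1, was the most abundant gene called up and had 1100 and 1299 CPM and then 4039 and 3377 CPM (log2 fold change 1.63, SE 0.15, adjusted p = 0.00111 in edgeR). Postn, the matricellular protein periostin, went from 241 and 367 CPM to 1253 and 1416 CPM (2.13) and was not called without day 3 replicate 1 (1.86). In all these genes both day 6 libraries lay above both of day 3.

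Collagen-crosslinking lysyl oxidases and matrix remodelling genes were among those that rose. Lox had 314 and 284 CPM at day 3 and 1109 and 970 CPM at day 6 (log2 fold change 1.80, SE 0.20, adjusted p = 0.00189 in edgeR), and Loxl2 68.2 and 55.0 CPM and then 275 and 181 CPM (1.89). Of the 5 tested members of this family, which was also set after the values were seen, 3 rose (60%, against 2.22% of all genes). Mmp2, a gelatinase that cleaves matrix proteins, had 37.1 and 40.3 CPM and then 113 and 133 CPM (1.66, SE 0.16), and Timp3, an inhibitor of such proteases, had 24.6 and 27.9 CPM and then 101 and 79.0 CPM (1.77, SE 0.17). Ctsk, a cathepsin that degrades collagen, had 7.64 and 6.04 CPM and then 29.2 and 24.9 CPM (log2 fold change 1.98, SE 0.15, adjusted p = 0.00074 in edgeR). No day 6 value of these genes overlapped with day 3, and the calls of Lox, Loxl2, Mmp2, Timp3 and Ctsk were kept without any 1 of the 4 libraries. Timp1 also rose, from 129 and 158 CPM to 335 and 300 CPM (1.15), except without day 3 replicate 1 (1.01, not called).

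Calcium-binding matricellular proteins and proteoglycans formed a further group. Thbs4, a thrombospondin of muscle and tendon, had 5.21 and 6.21 CPM at day 3 and 52.0 and 50.6 CPM at day 6 (log2 fold change 3.17, SE 0.32, adjusted p = 0.00123 in edgeR). Smoc2, a modular calcium-binding protein of the matrix, had 5.89 and 4.05 CPM and then 32.7 and 45.0 CPM (log2 fold change 2.97, SE 0.25, adjusted p = 0.00111 in edgeR). For both, the day 6 values were several times above the day 3 values in each pair of libraries. Thbs2 went from 45.5 and 38.4 CPM to 141 and 98.9 CPM (1.51), Fbn1, the microfibril protein fibrillin, from 253 and 284 CPM to 681 and 607 CPM (1.26), and Aspn, the proteoglycan asporin, from 16.1 and 9.78 CPM to 50.7 and 40.7 CPM (1.82). Thbs4, Smoc2, Thbs2, Fbn1 and Aspn were called whichever library was left out. Bgn, biglycan, had 616 and 598 CPM and then 1421 and 1123 CPM (1.07) and was not called without day 3 replicate 1 (1.09), day 3 replicate 2 (1.04) or day 6 replicate 1 (0.88). Fbln2, fibulin 2, had 461 and 257 CPM and then 1114 and 801 CPM (1.42) and was not called without day 6 replicate 1 (1.16).

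Of 39 tested collagen genes of all types, a family set after the values were seen, 5 rose (12.8%, against 2.22% of all genes), with a median log2 fold change of 0.64. The collagen I genes were not among them. Col1a1 had 1082 and 983 CPM at day 3 and 2701 and 1719 CPM at day 6 (log2 fold change 1.10, adjusted p = 0.0855 in edgeR), and Col1a2 had 1049 and 1352 CPM and then 2442 and 1846 CPM (0.84, adjusted p = 0.133 in edgeR). For both, the groups did not overlap but the difference did not pass the test. Col1a1 did pass both thresholds in DESeq2 (1.08, adjusted p = 0.0113 in DESeq2) and with a replicate block (1.06, adjusted p = 0.0129 in edgeR), whereas Col1a2 did not. Col3a1 was called, with 302 and 526 CPM and then 830 and 863 CPM (1.03), but not without day 3 replicate 1 (0.68), day 6 replicate 1 (1.06) or day 6 replicate 2 (1.0). Col11a1 went from 11.3 and 4.37 CPM to 82.2 and 30.0 CPM (2.85) and lost its call without day 3 replicate 1 (3.68), day 3 replicate 2 (2.31) or day 6 replicate 1 (1.94). Ltbp2, a latent TGF-beta binding protein, went from 51.7 and 24.1 CPM to 243 and 98.7 CPM (2.17) and behaved likewise (2.82, 1.72 and 1.38 without the same 3 libraries).

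**Figure D3:**
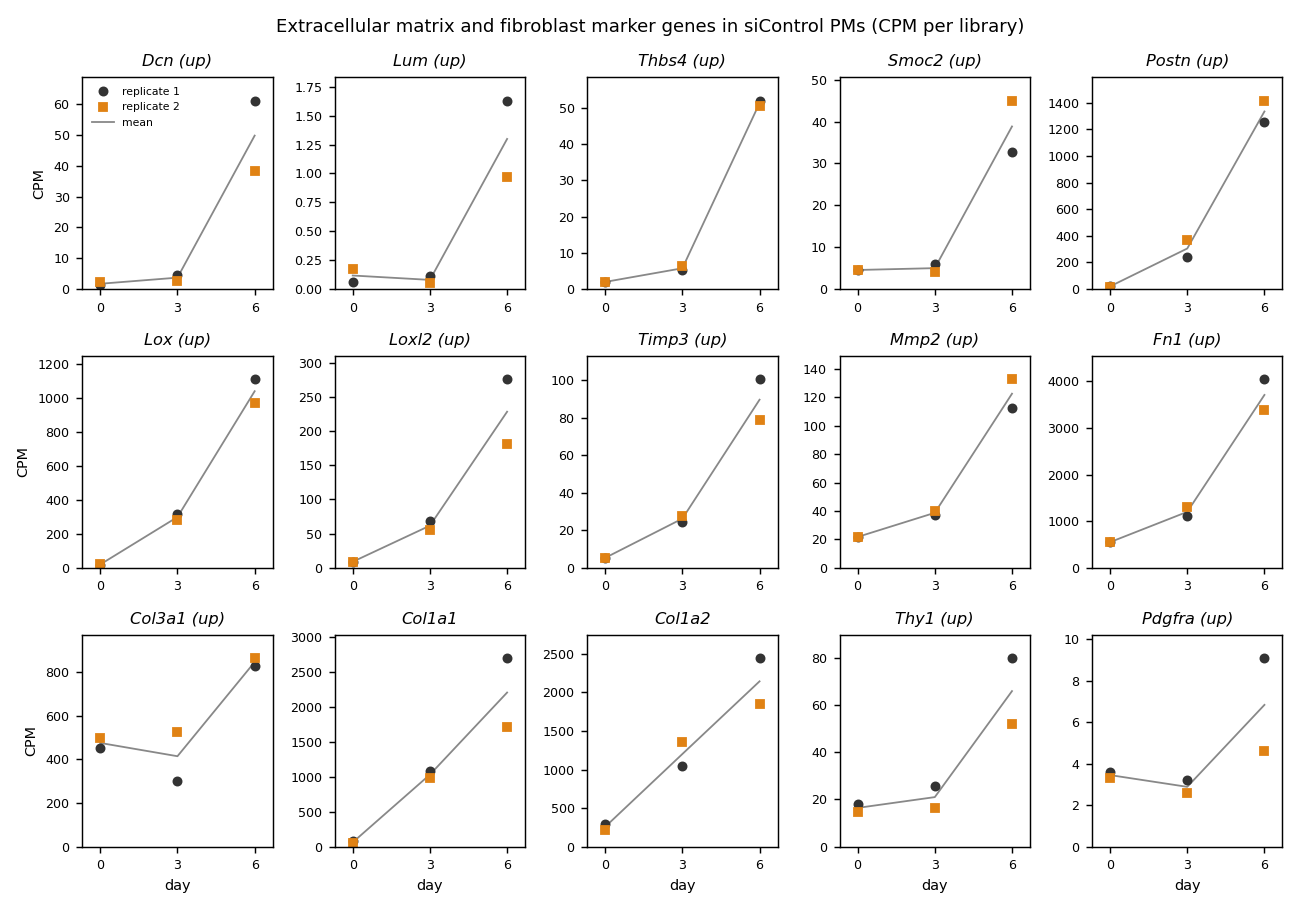
Each panel shows the CPM of 1 matrix or fibroblast marker gene (vertical axis, starting at 0) against the day of differentiation (horizontal axis) in siControl PMs, drawn as black circles (replicate 1), orange squares (replicate 2) and a grey line through the means. Dcn, Thbs4, Smoc2, Fn1 and Lox have both day 6 values above both day 3 values, and Col1a1 and Col1a2 do so without being called.

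Markers of fibroblasts moved with the matrix genes. Of 10 markers 9 were tested, 6 rose (Lum, Dcn, Dpt, Thy1, Pdgfra and Col3a1, of which Dcn, Lum and Col3a1 are also in the matrix list) and none fell. The rises were 66.7% of the tested markers, against 2.22% of all genes. Without day 3 replicate 1, 3 were called, and without day 6 replicate 1, 4. Their summed level was 1422 to 1538 CPM at day 3 and 2686 to 3690 CPM at day 6. Most of this sum came from 2 collagens, so that it says little about the other markers. Mean levels at days 3 and 6 were 1033 and 2210 CPM for Col1a1, which was not called, and 414 and 847 CPM for Col3a1. Tcf21 had no read in any of the siControl PM libraries. Thy1, a surface protein of fibroblasts and other cells, went from 25.8 and 16.2 CPM to 79.9 and 52.1 CPM (log2 fold change 1.65, SE 0.24, adjusted p = 0.00688 in edgeR). Pdgfra, the platelet-derived growth factor receptor of interstitial mesenchymal cells, went from 3.19 and 2.57 CPM to 9.07 and 4.59 CPM (1.25) and was not called without day 3 replicate 1 (1.41), day 3 replicate 2 (1.10) or day 6 replicate 1 (0.67). Dpt, dermatopontin, went from 0.0810 and 0.170 CPM to 1.08 and 0.936 CPM (2.95) and was not called without day 3 replicate 1 (2.54), and reached 3.58 without day 3 replicate 2. The part of fibroblasts in the rise of the matrix genes was not tested. The 10 markers of myoblasts and myotubes summed to 38960 and 36760 CPM at day 3 and 31290 and 37920 CPM at day 6, with none called.

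Other cell types were represented at low levels. Summed over 8 macrophage markers the level was 3.93 to 4.97 CPM at day 3 and 3.69 to 4.74 CPM at day 6. C1qa and Emr1 had no read in these 4 libraries and Ptprc had 1 read, although Lyz2 was called up from 4 and 2 reads to 20 and 19 reads, a call lost whichever library was left out (log2 fold change 2.45 to 3.55, and 2.92 with all). The sum of 7 endothelial markers was 18.8 and 4.90 CPM at day 3 and 14.6 and 5.59 CPM at day 6, and that of 6 Schwann cell markers 12.8 and 3.49 CPM and then 20.1 and 3.46 CPM, so that replicate 1 was higher than replicate 2 on both days for both cell types, and no member of either list was called. Among 8 adipocyte markers 3 were tested and Cebpa, a factor that other cells also express, rose from 2.81 and 5.39 CPM to 8.00 and 13.8 CPM (1.40), though not without day 3 replicate 1 (1.01) or day 6 replicate 2 (0.96). The satellite cell markers summed to 330 and 452 CPM at day 3 and 330 and 455 CPM at day 6, with none of 9 tested genes called, and none of 6 tested markers of smooth muscle and pericytes was called.

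Myogenic regulators gave no call between both days, 0 of 19 tested genes, where 2.8% of all genes were called. The median log2 fold change was -0.23, but 0.02 without day 6 replicate 1 and -0.58 without day 6 replicate 2. Myog, the factor that drives terminal differentiation, had 949 and 1121 CPM at day 3 and 816 and 1109 CPM at day 6, with overlapping values (log2 fold change -0.10, adjusted p = 0.761 in edgeR). Myod1, which specifies myoblasts, had 393 and 445 CPM and then 237 and 426 CPM (-0.34, adjusted p = 0.447 in edgeR). Mef2c, a partner of these factors, had 1301 and 1423 CPM and then 1766 and 2008 CPM (0.47, adjusted p = 0.0550 in edgeR). Myf6, which is expressed in differentiated fibres, had 73.0 and 93.7 CPM and then 81.4 and 91.6 CPM (0.05). Both markers of undifferentiated cells had lower values at day 6 without being called: Pax7 had 24.7 and 45.5 CPM and then 15.8 and 23.1 CPM (-0.85, adjusted p = 0.0974 in edgeR), and Myf5 had 16.7 and 27.3 CPM and then 12.1 and 15.3 CPM (-0.69, adjusted p = 0.139 in edgeR).

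Genes of the neuromuscular junction were likewise not called, 0 of 16 tested, where 2.8% of all genes were called. As for the myogenic regulators, a list this short without a call is near that share and is not set apart by it. The subunits of the acetylcholine receptor, which switches from an embryonic form with the gamma subunit to an adult form with the epsilon subunit, are of interest for maturation. Chrng, the gamma subunit, had 881 and 737 CPM at day 3 and 444 and 792 CPM at day 6, which overlapped (log2 fold change -0.39, adjusted p = 0.391 in edgeR). Chrne, the epsilon subunit, had 12.4 and 8.08 CPM and then 15.0 and 19.5 CPM (0.75, adjusted p = 0.188 in edgeR). Per length, the mean level of Chrng was 421 CPM per kb at day 3 and 322 CPM per kb at day 6, and that of Chrne 6.07 and 10.2 CPM per kb. The shared subunits Chrna1 (-0.17), Chrnb1 (-0.04) and Chrnd (0.13) had overlapping values on both days.

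Tead factors, the transcription factors that bind the MCAT motif, gave no call over this interval. Tead1 had 278 and 267 CPM at day 3 and 269 and 167 CPM at day 6 (log2 fold change -0.32), Tead2 58.9 and 69.2 CPM and then 62.2 and 64.2 CPM (-0.02), Tead3 30.6 and 35.6 CPM and then 43.5 and 59.7 CPM (0.64, adjusted p = 0.0844 in edgeR), and Tead4 186 and 189 CPM and then 155 and 166 CPM (-0.23). Of 14 tested genes of the Tead and Hippo list 1 rose, Ctgf, a secreted matricellular protein and a well-known target of these factors, from 194 and 104 CPM to 451 and 348 CPM (1.42, adjusted p = 0.0334 in edgeR). It was not called without day 3 replicate 2 (1.04), day 6 replicate 1 (1.22) or day 6 replicate 2 (1.60).

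Letters of the MCAT motif and of 2 other muscle motifs were looked for in the 250 bases before the start of each gene in the RefSeq promoter table (GRCm38.p6), on both strands, in the 11797 tested genes that matched by name. CATTCC, the MCAT core, was in 16.0% of the 256 matched promoters of genes called up, 14.8% of the 61 of genes called down and 13.1% of all. CAGCTG, an E-box, was in 15.2%, 19.7% and 15.0%, and TATTTATA, an A/T-rich core bound by Mef2 factors, in 1.56%, 3.28% and 1.28%. A match is only a description of letters, and no test was made of these shares. The 80 bases around the match upstream of the slow myosin gene Myh7 (chr14:54994785-54994864, minus strand, match on the opposite strand) and of Fhl1 (chrX:56779489-56779568, plus strand) are shown as examples of genes that rose and carry one, 5′ to 3′ on the strand of the gene, with the match in capitals.
Myh7: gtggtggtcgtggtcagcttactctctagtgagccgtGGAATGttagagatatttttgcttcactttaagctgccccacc
Fhl1: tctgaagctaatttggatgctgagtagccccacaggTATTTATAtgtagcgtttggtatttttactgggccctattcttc

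Growth factors and myokines, proteins by which muscle signals to itself and other tissues, gave 3 rises and 1 fall among 26 tested genes. These were 11.5% and 3.85%, against 2.22% and 0.582% of all genes. Bdnf, a neurotrophin, went from 5.13 and 4.00 CPM to 16.2 and 15.5 CPM (log2 fold change 1.80, SE 0.24, adjusted p = 0.00455 in edgeR), and Igfbp7, a secreted insulin-like growth factor binding protein, from 75.8 and 58.8 CPM to 154 and 160 CPM (1.22, SE 0.12, adjusted p = 0.00123 in edgeR). Both calls held without any 1 library. Mstn, myostatin, the secreted inhibitor of muscle growth, fell from 21.7 and 15.7 CPM to 6.86 and 5.02 CPM (log2 fold change -1.65, SE 0.30, adjusted p = 0.0132 in edgeR), following 40.6 and 42.0 CPM at day 0. It was not called without day 3 replicate 1 (-1.41) or day 6 replicate 2 (-1.45). Hgf, which activates satellite cells, rose from 1.13 and 1.82 CPM to 3.88 and 4.43 CPM (1.49), a call lost whichever library was left out (1.19 to 1.87). Lif, a cytokine of the interleukin 6 family outside the list, rose from 5.27 and 5.51 CPM to 29.1 and 12.1 CPM (1.93) and was not called without day 3 replicate 1 (1.90), day 3 replicate 2 (1.96) or day 6 replicate 1 (1.16).

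Proliferation genes were already low at day 3. Of 33 tested cell cycle genes 27 had lower values at day 6 (median log2 fold change -0.53), and 1 was called. The summed level of the list did not fall, with 1245 and 1410 CPM at day 3 and 1480 and 1288 CPM at day 6, which overlapped. Without day 6 replicate 1 the list had 13 genes called down and a median of -1.07, and without day 6 replicate 2 it had 0 and a median of -0.20. The gene called with all libraries was Ccna2, a cyclin of S phase and mitosis, which had 211 and 206 CPM at day 0, 16.1 and 19.7 CPM at day 3 and 10.1 and 5.90 CPM at day 6 (log2 fold change -1.16, adjusted p = 0.0153 in edgeR). Its call was lost without day 3 replicate 2 (-1.01) or day 6 replicate 2 (-0.83). Outside the list, Uhrf1, a maintenance factor of DNA methylation in dividing cells, fell from 14.4 and 15.8 CPM to 8.64 and 5.12 CPM (-1.13), although not without day 3 replicate 1 (-1.20), day 3 replicate 2 (-1.07) or day 6 replicate 2 (-0.81). Cdkn1c, which encodes the cyclin-dependent kinase inhibitor p57, also fell, from 429 and 430 CPM to 135 and 240 CPM (-1.19, adjusted p = 0.0490 in edgeR), and was not called without day 3 replicate 1 (-1.20), day 3 replicate 2 (-1.20) or day 6 replicate 1 (-0.84).

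Further large falls concerned genes of several functions. Tm6sf1, a transmembrane protein, went from 227 and 167 CPM to 59.8 and 74.2 CPM (log2 fold change -1.56, SE 0.16, adjusted p = 0.00128 in edgeR), Fmo1, a flavin-containing monooxygenase, from 39.2 and 35.6 CPM to 9.32 and 14.3 CPM (-1.66, SE 0.17), and Nrn1, a neurite growth protein, from 14.3 and 10.6 CPM to 3.48 and 4.43 CPM (-1.65, SE 0.23). These 3 calls were kept without any 1 library. Peg10, an imprinted gene of retrotransposon origin, went from 351 and 243 CPM to 91.6 and 46.8 CPM (-2.10) and was not called without day 3 replicate 1 (-1.81) or day 6 replicate 2 (-1.70). Mfap4, a microfibril-associated protein, fell from 67.9 and 59.0 CPM to 16.3 and 25.7 CPM (-1.59), against the direction of most matrix genes, but not without day 3 replicate 1 (-1.49). Fndc7 fell from 5.86 and 5.27 CPM to 2.12 and 1.75 CPM (-1.52) and was not called without day 3 replicate 1 (-1.44) or day 6 replicate 2 (-1.39).

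Stress and interferon genes need their replicates beside them. Of 28 tested immediate early and stress genes 24 had higher values at day 6 (median log2 fold change 0.59) and 2 rose (7.14%, against 2.22% of all genes). The number called was 0 without day 3 replicate 1, 4 without day 3 replicate 2 and 1 without either day 6 library. Egr3, an immediate early transcription factor, went from 20 and 38.9 CPM to 68.3 and 77.3 CPM (1.31), and Fos from 10.3 and 15.6 CPM to 26.1 and 30.1 CPM (1.12). Egr3 was not called without day 3 replicate 1 (0.90), day 6 replicate 1 (1.39) or day 6 replicate 2 (1.21), and Fos was not called without day 3 replicate 1 (0.84) or day 6 replicate 2 (1.01). Interferon response genes gave 0 calls among 22 tested, with a median of -0.70 on the log2 scale that was 0.71 without day 3 replicate 2 and -1.29 without day 3 replicate 1. Their summed level was 297 CPM in day 3 replicate 1 but 692 CPM in day 3 replicate 2, against 425 and 480 CPM at day 6. Isg15, an interferon-induced ubiquitin-like protein, had 3.43 and 37.5 CPM at day 3 and 7.04 and 11.5 CPM at day 6, and its log2 fold change turned from -1.15 to 1.43 without day 3 replicate 2. Ifit1 did the same, from -1.37 to 0.75. Day 3 replicate 2 thus stood above the other 3 libraries for these genes. None of 16 tested atrophy and Foxo genes was called, which is near the share over all genes (2.8% called).

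**Figure D4:**
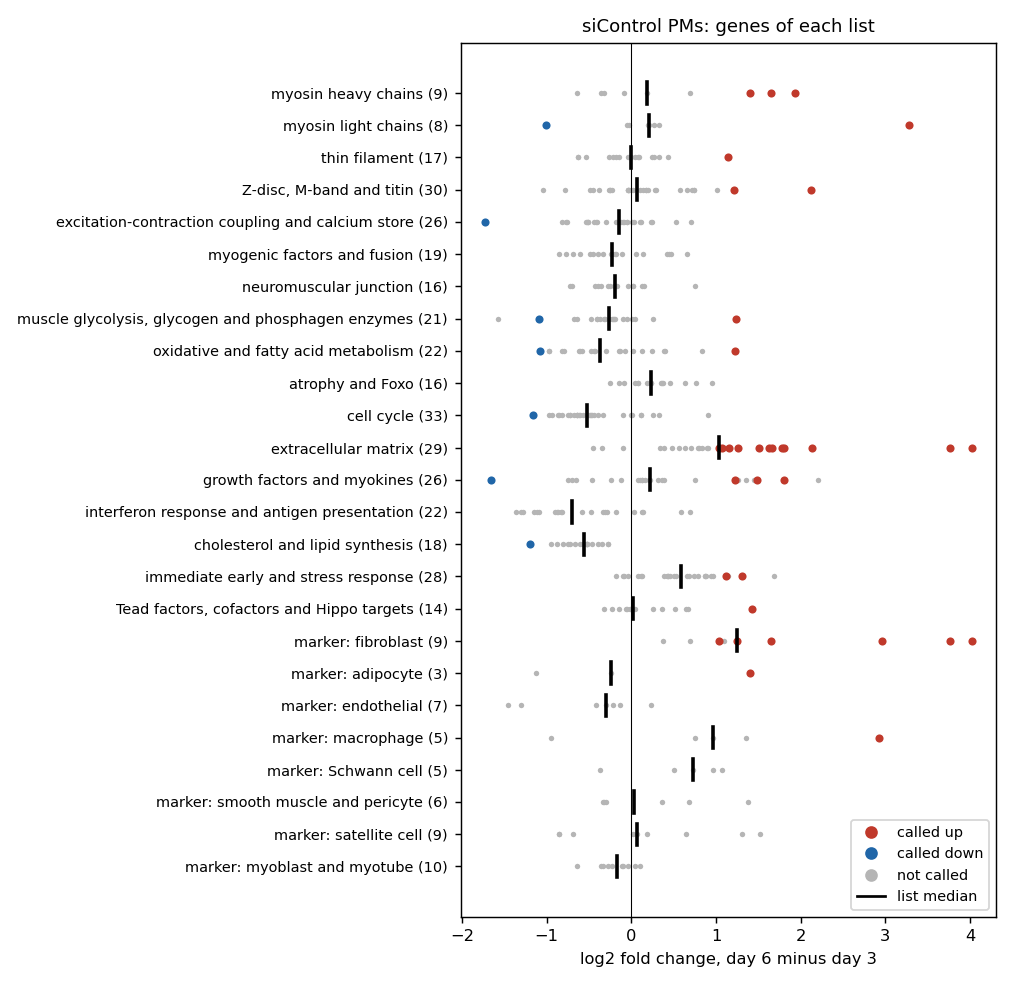
Each row is a gene list with the number of its tested genes in brackets, and each point is the log2 fold change (day 6 minus day 3, horizontal axis) of 1 gene in siControl PMs, red where called up, blue where called down and grey where not called. Black bars are list medians. The extracellular matrix (median 1.03, 12 of 29 called up) and fibroblast marker lists (median 1.25, 6 of 9) lie to the right of the others, and the 18 cholesterol and lipid synthesis genes all lie below 0.

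The same days were also compared in PMs transfected with siTead1/4, whose libraries stood in the fit of 12 PM libraries and so shared its filter and its estimate of the spread with the calls above. In these PMs, the change from day 3 to day 6 had the same direction for 343 of the 358 genes called up in siControl PMs (95.8%, where 49.1% of all tested genes were higher), with a median log2 fold change of 1.24, and 158 of the 358 were themselves called up there. Of the 94 genes called down, 91 were lower (96.8%, against 50.9% of all genes) and 35 were called down. In siTead1/4 PMs 297 genes (1.84%) were called up and 182 (1.13%) were called down in all. The fold changes of siControl PMs were computed from other libraries than these, but same-numbered siControl and siTead1/4 libraries deviated together from their group means (correlation across genes 0.443 at day 3 and 0.539 at day 6), so that the shared directions are not independent of the calls. Dcn had a log2 fold change of 2.65 there, Thbs4 2.48, Smoc2 3.25, Lox 2.34, Fn1 1.12, Myl2 3.74, Myh7 3.18 and Fhl1 2.15, each of them called. The difference between both changes, tested as an interaction in the 12 PM libraries, gave 0 called genes in edgeR. Of 16144 genes 733 had an unadjusted p under 0.05, about as many as this cutoff passes when nothing differs. The lowest adjusted p in edgeR was 0.18 over all genes. DESeq2 called 25. The gene with this lowest value was Myh1, whose log2 fold change was -0.65 in siControl PMs and 1.19 in siTead1/4 PMs, where it was called up (difference -1.84, SE 0.28).

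In siControl C2C12 cells the genes called in PMs were divided between higher and lower values. Of the 358 genes called up in PMs, 185 were higher at day 6 in C2C12 cells (51.7%, where 50.5% of all genes were higher), with a median log2 fold change of 0.02, and of the 94 called down 53 were lower (56.4%, against 48.3%), with a median of -0.04. No gene was called in C2C12 cells in edgeR between these days. There, 808 of 16926 genes had an unadjusted p under 0.05, about as many as this cutoff passes when nothing differs. This C2C12 contrast came from the fit of all 24 libraries, and not from the fit of PM libraries that gave 358 and 94. In the fit of all 24 libraries siControl PMs had 132 genes called up and 32 called down. In the fit of all 24 libraries the difference between PMs and C2C12 cells was 3.86 (SE 0.88) on the log2 scale for Dcn, 2.00 (SE 0.40) for Fn1, 1.61 (SE 0.37) for Lox, 2.29 (SE 0.48) for Fhl1 and -1.34 (SE 0.36) for Scd2. None of these differences passed adjustment (adjusted p 0.145, 0.0951, 0.145, 0.104 and 0.23 in edgeR). Over all genes 0 differences were called in edgeR, with 1366 at an unadjusted p under 0.05 and a lowest adjusted p of 0.0634. This count depended on the settings: edgeR called 13 with at least 10 counts in every library and 281 with no filter on low counts, and DESeq2 called 116. Cell type, strain, medium (IMDM for PMs, DMEM for C2C12 cells) and culture on or off matrigel differ together between both sets of cultures and cannot be told apart. Myh2 had a log2 fold change of 1.12 in C2C12 cells and Myh7 one of -0.84.

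**Figure D5:**
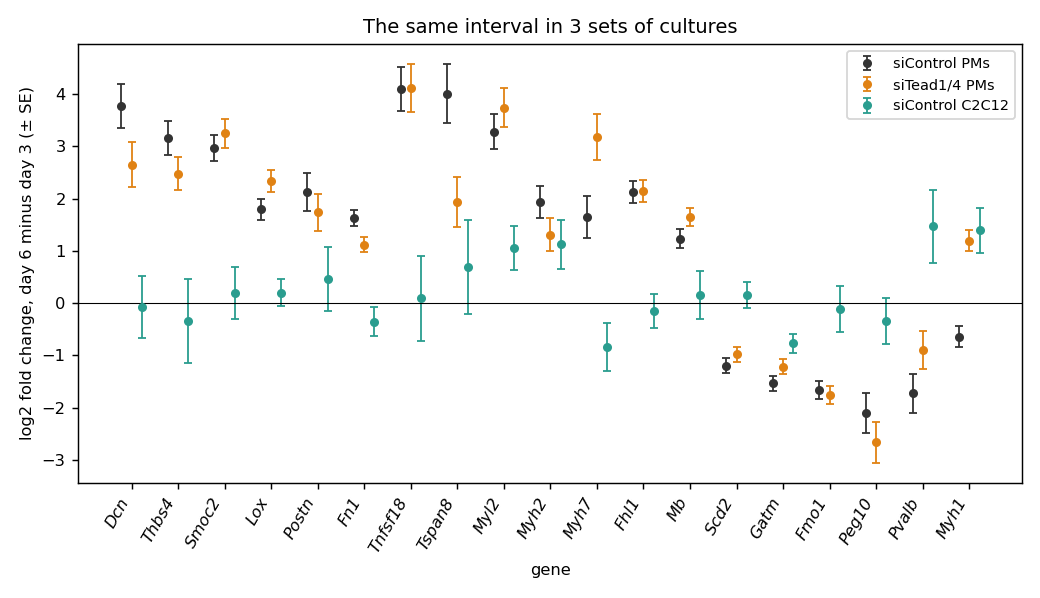
For 19 genes named in the text (horizontal axis) the log2 fold change from day 3 to day 6 is drawn with its standard error in siControl PMs (black), siTead1/4 PMs (orange) and siControl C2C12 cells (green), 2 libraries per day in each. The black and orange points have the same sign for every gene shown except Myh1, which was -0.65 and 1.19, while the green points of Dcn, Thbs4 and Fn1 lie below 0.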

How the data were processed

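RNA was extracted from whole cultures, and polyadenylated RNA was sequenced from unstranded libraries, in which overlapping and antisense genes cannot be separated. The authors mapped the reads to mm9 with Tophat and deposited raw read counts per Ensembl gene. The submitters' processing notes name CASAVA 1.8.2, TopHat2 2.0.10, Bowtie2 2.1.0, HTSeq 0.6.1 and DESeq2 1.8.1. The deposited gene length, in bases, was used to give CPM per kb. Normalised values, and 36 columns of libraries not listed here, were not used.

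Counts of the 12 PM libraries were filtered with filterByExpr, scaled by TMM and fitted in edgeR 4.0.16 (R 4.3.3, limma 3.58.1) with 1 mean per group, and contrasts were tested with the quasi-likelihood test (glmQLFit, glmQLFTest) and Benjamini-Hochberg adjustment over all 16144 genes. The change in C2C12 cells and the interaction with C2C12 cells used all 24 libraries (16926 genes). SE is the log2 fold change divided by the square root of F. DESeq2 1.42.0 served as an alternative. The code was tested on simulated counts. Within each group the replicates differed by more than the sampling noise, and with 2 replicates per group p-values measure the spread between these cultures, which share no label beyond the replicate number. For a single gene, an exact permutation test of 2 against 2 libraries cannot reach 0.05.

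Named genes were the 14 largest rises and 10 largest falls among called genes with non-overlapping days and a higher group mean of at least 5 CPM, up to 6 called genes per list, and the defining members of lists. Others were named after their values were seen. The comparison and the gene lists were chosen with earlier results of these data known. Hmgcs1, Psmb9, Ajuba and C1qb were not analysed here, and some genes that the rule names are not reported here. Promoter sequences came from RefSeq (GRCm38.p6), whose coordinates were not mixed with those of the counts.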

Additional observations from a re-analysis of the deposited data

How the results depend on the processing

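With 2 libraries per day the number of calls depended on the fit. Against 358 genes up and 94 down, a fit of only the 4 libraries compared gave 124 and 24, all 24 libraries in one fit 132 and 32, no filter on low counts 544 and 165, at least 10 counts in every library 238 up, and the adjusted p alone 599 and 410. DESeq2 gave 385 and 120, and RLE scaling 346 and 96. Without 1 of the 4 libraries 107 to 250 genes were called up and 36 to 97 were called down, with the fewest without day 3 replicate 1 (107 and 36). All 452 called genes kept their sign in each of these 4 fits. In a gene whose days do not overlap this could hardly be otherwise, so the kept signs add no support to the calls. Many of these genes lost their call. Of the 87 named and called genes 34 kept it in all 4 fits, and 53 lost it in at least 1, with the values given beside the genes reported here.

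Replicate numbers are shared between the groups, but no label ties a number to an animal or a day. The deviations of same-numbered siControl PM libraries of days 3 and 6 correlated at 0.279, and at 0.0695 to 0.539 over the 15 pairs of PM groups, so that the pairing was not established. With a replicate block 586 genes were called up and 146 were called down, and the interactions gave 50 calls (PMs against C2C12 cells) and 3 calls (siControl against siTead1/4 PMs). Other settings of these interactions gave, for C2C12 cells, 116 calls in DESeq2, 281 with no filter, 13 with at least 10 counts in every library and 0 to 3 without 1 library, and for siTead1/4 PMs 25 in DESeq2 and 46 with no filter, against 0 for both in the main analysis. The cause was not tested.

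The sign of some genes that were not called turned when 1 library was left out, with log2 fold changes over the 4 fits of Acta1 -0.035 to 0.11, Atp2a2 -0.0049 to 0.056, Chrna1 -0.56 to 0.14, Chrnb1 -0.21 to 0.10, Chrnd -0.35 to 0.48, H19 -0.33 to 0.042, Ifit1 -2.19 to 0.75, Isg15 -2.02 to 1.43, Myf6 -0.12 to 0.24, Myh13 -0.49 to 0.23, Myh4 -0.15 to 0.46, Myl3 -1.22 to 0.98, Myod1 -0.82 to 0.021, Myog -0.35 to 0.10 and Tead2 -0.13 to 0.10. With no filter on low counts Atp2a2 was at -0.00013. These genes have no certain sign with 2 libraries per day.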

Other observations

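The genes below were chosen after their values were seen. Slit3, a secreted guidance cue, had 13.9 and 7.40 CPM at day 3 and 42.1 and 37.2 CPM at day 6 (log2 fold change 1.90, adjusted p = 0.00853 in edgeR). Of 7 tested Wnt antagonist genes 3 were called up and 1 was called down, Sfrp2, with 10 and 11 reads at day 3 and 0 and 2 reads at day 6. These were 42.9% and 14.3%, against 2.22% and 0.582% of all genes. Wif1, which binds Wnt proteins, had 1.59 and 1.80 CPM and then 6.28 and 7.24 CPM (1.99), and Dkk2, a modulator of the Wnt co-receptor, had 4.16 and 2.11 CPM and then 27.4 and 11.5 CPM (2.64). Slit3 and Wif1 kept their call without any 1 library, and Dkk2 was not called without day 3 replicate 2 (2.22) or day 6 replicate 1 (1.87). In the retinoid pathway Crabp2, a retinoic acid carrier, rose from 1.49 and 1.58 CPM to 7.11 and 5.40 CPM (2.03) while Rxrg, a retinoid X receptor, fell from 27.4 and 26.5 CPM to 12.2 and 13.1 CPM (-1.09), both whichever library was left out. In C2C12 cells the log2 fold change of Rxrg was -1.13 and that of Crabp2 -0.19.

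Of 59 tested potassium channel genes 6 were called up (10.2%) and of 11 sodium channel genes 2 (18.2%) and of 21 calcium channel genes 1 (4.76%), against 2.22% of all genes, and none of these channel genes was called down. Scn4b, a sodium channel beta subunit, went from 0.702 and 2.04 CPM to 7.23 and 4.56 CPM (2.09, not called without day 3 replicate 1, 1.53, or day 6 replicate 1, 1.72, and 3.06 without day 3 replicate 2). Scn2a1, an alpha subunit known from neurons, went from 0.189 and 0.194 CPM to 0.984 and 0.905 CPM (2.28, not called without day 3 replicate 1, 2.26). Cacna1g, a T-type calcium channel, went from 0.999 and 1.14 CPM to 3.78 and 4.09 CPM (1.87, not called without day 3 replicate 1, 1.78). Mapt, the microtubule-binding protein tau, rose from 2.86 and 3.59 CPM to 16.9 and 26.2 CPM (2.73, adjusted p = 0.00123 in edgeR) and kept its call without any 1 library. Nos1, the nitric oxide synthase of the muscle membrane, rose from 11.7 and 17.4 CPM to 43.7 and 79.3 CPM (2.08, not called without day 3 replicate 1, 1.82, day 3 replicate 2, 2.39, or day 6 replicate 2, 1.58). Meox1, a homeobox gene of the somite, rose from 3.75 and 4.17 CPM to 24.0 and 11.9 CPM (2.18, not called without day 3 replicate 1, 2.10, and 1.58 without day 6 replicate 1).

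Of 15 tested entries for lysosomal enzymes of glycan breakdown, with Glb1 listed under 2 identifiers, 4 were called up (26.7%, against 2.22% of all genes). Aga had 10.1 and 10.7 CPM at day 3 and 29.4 and 24.8 CPM at day 6 (1.39, called without any 1 library) and Hexa 67.7 and 102 CPM and then 150 and 210 CPM (1.09, not called without day 3 replicate 1, 0.82, or day 6 replicate 2, 0.82). Imprinted genes gave 2 falls among 26 tested (7.69%, against 0.582% of all genes). These were Peg10 (-2.10) and Cdkn1c (-1.19), whose dependence on single libraries is given with their values above. Igf2 (4643 and 3698 CPM, then 2363 and 2592 CPM, log2 fold change -0.75, adjusted p = 0.0431 in edgeR) and Grb10 (851 and 823 CPM, then 424 and 423 CPM, -0.98, adjusted p = 0.0414 in edgeR) passed the adjusted p but not the fold threshold, and H19 (-0.15) did not pass either.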
